A study of Mus musculus with 4 samples.

Results

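The genes described here encode the machinery that copies DNA in S phase, measured in alveolar macrophages (AM) of TREM-2 deficient and wild type mice. The 41 members comprise factors of origin licensing, the MCM2-7 helicase and its activators, the sliding clamp and clamp loader, DNA polymerases and primase, Okazaki fragment enzymes, nucleotide supply enzymes, chromatin assembly factors and the G1/S regulators cyclin E and E2F. A gene was taken where the annotation of the array gave a probe set its symbol and no other, and all 41 were measured, among 19946 genes in all. RNA came from AM washed out of the lungs of 8 to 10 week old mice by bronchoalveolar lavage, without treatment, and was hybridized to 2 arrays from *Trem-2*-/- AM and 2 arrays from WT AM. The *Trem-2*-/- mice carried the TREM2-/- genotype in every cell and had been backcrossed 10 times to C57/Blk6, the background of the WT mice. The study's methods state that WT mice were bought in and that both lines were bred in 1 facility, without calling the mice littermates. Each array held RNA of pooled mice, and the sources used here give neither the number of mice per pool nor whether replicate pools shared mice. The spread behind the p-values is thus that between these arrays, and may be technical.

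DNA replication starts with licensing in G1 phase. The origin recognition complex, CDC6 and CDT1 load the ring of 6 MCM subunits onto DNA. In S phase, CDC45 and the GINS complex join the ring to form the active helicase, polymerases copy both strands behind it, and the PCNA clamp holds them on the template. Transcription of most of these genes is controlled by E2F factors and peaks around the G1/S transition, so that their transcripts are widely used to tell cycling from resting cells. AM are long-lived tissue macrophages that can maintain themselves by local division, driven by the growth factor GM-CSF.

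Values are log2 signals after normalization by the robust multi-array average (RMA), so a difference of 1 is a doubling of signal. The 4 arrays were alike, with lower quartiles of 4.39 to 4.40 and Pearson's r across probe sets of 0.992 to 0.995, where probe sets are not independent replicates. *Trem2*, the targeted gene, had 7.64 and 7.45 on the *Trem-2*-/- arrays and 9.58 and 9.74 on the WT arrays (limma adjusted p = 0.0009). The AM markers *Pparg*, *Fabp4*, *Chil3* and *Itgax* lay between 10.15 and 12.88 on every array, and none of the 14 measured AM markers was lower past the test. Both *Trem-2*-/- arrays lay below both WT arrays for 6 of the 14 and above them for 5, where 25.4% of all genes lay below and 17.4% above. Among the 6 were *Krt79* and *Siglecf*, with log2 differences (*Trem-2*-/- minus WT) of −0.35 and −0.21 (adjusted p = 0.207 and 0.377 from limma). Of the 17 genes measured that mark interstitial or monocyte-derived macrophages, 10 passed as higher, where 0.431% of all genes did. The summed linear signal of the 17 was 22976 and 22296 on the *Trem-2*-/- arrays and 13646 and 14022 on the WT arrays. The 10 were *Pf4*, *Apoe*, *Tmem176b*, *H2-Aa*, *H2-Ab1*, *H2-Eb1*, *Cd74*, *Ccr2*, *Cx3cr1* and *Cd14*. Of the rest of the 17, *Tmem176a*, *Csf1r* and *Cd163* differed by 0.79, 0.13 and 0.10. *Lyve1*, *Folr2*, *Maf* and *Cd209a* differed by −0.09, −0.07, −0.01 and 0.00. The AM markers *Car4* and *Fabp1* also passed as higher. No marker passed the test among 12 of T and NK cells, 7 of B cells, 8 of dendritic cells and 13 of neutrophils. Of all genes, 0.135% passed as lower and 0.431% as higher. Of the neutrophil markers, 10 lay above 0 and 3 below, where 42.7% and 57.3% of all genes did. At an unadjusted p below 0.05 from limma, 4 of the 13 were higher and none lower, against 4.64% and 6.9% of all genes. Among the 13, *Csf3r* differed most, by 0.64 (limma adjusted p = 0.070). In *Trem-2*-/- AM, 2 of 16 lung epithelial, 1 of 6 eosinophil and 1 of 3 erythroid markers passed as higher and none as lower. These were *Scgb1a1*, *Cldn18*, *Alox15* and *Alas2*, where 0.431% of all genes passed as higher and 0.135% as lower. At an unadjusted p below 0.05 from limma, 8 of the 16 epithelial markers were higher and none lower. By contrast, 4 of the 6 eosinophil and 2 of the 3 erythroid markers lay below 0. The B cell gene *Cd79a* lay below the lower quartile on every array, at 3.89 to 4.08, while RMA values carry no 0 and no detection call.

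Every one of the 41 replication genes averaged lower in *Trem-2*-/- AM, although *Orc1* turned to a higher mean when the arrays were centred on their medians or quantile normalized. The median log2 fold change (*Trem-2*-/- over WT) was −0.27 over these genes and −0.02 over all 19946 genes, of which 57.3% lay below 0 and 42.7% above. With limma and Benjamini-Hochberg adjustment over all genes, 5 members were lower, *Mcm2*, *Uhrf1*, *Mcm6*, *Cdc6* and *Rrm2*, and none was higher, where 0.135% of all genes were called lower and 0.431% higher. At an unadjusted p below 0.05, 27 members were lower and none higher, against 6.9% and 4.64% of all genes. Both *Trem-2*-/- arrays lay below both WT arrays for 36 of the 41 genes and above them for none, where 25.4% of all genes lay below and 17.4% above. In RNA of a cell pool, fewer cells in S phase cannot be told apart from less of these transcripts per cell. Whether the higher signal of the interstitial or monocyte-derived macrophage markers has a part in the lower replication transcripts was not tested.

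**Figure D1:**
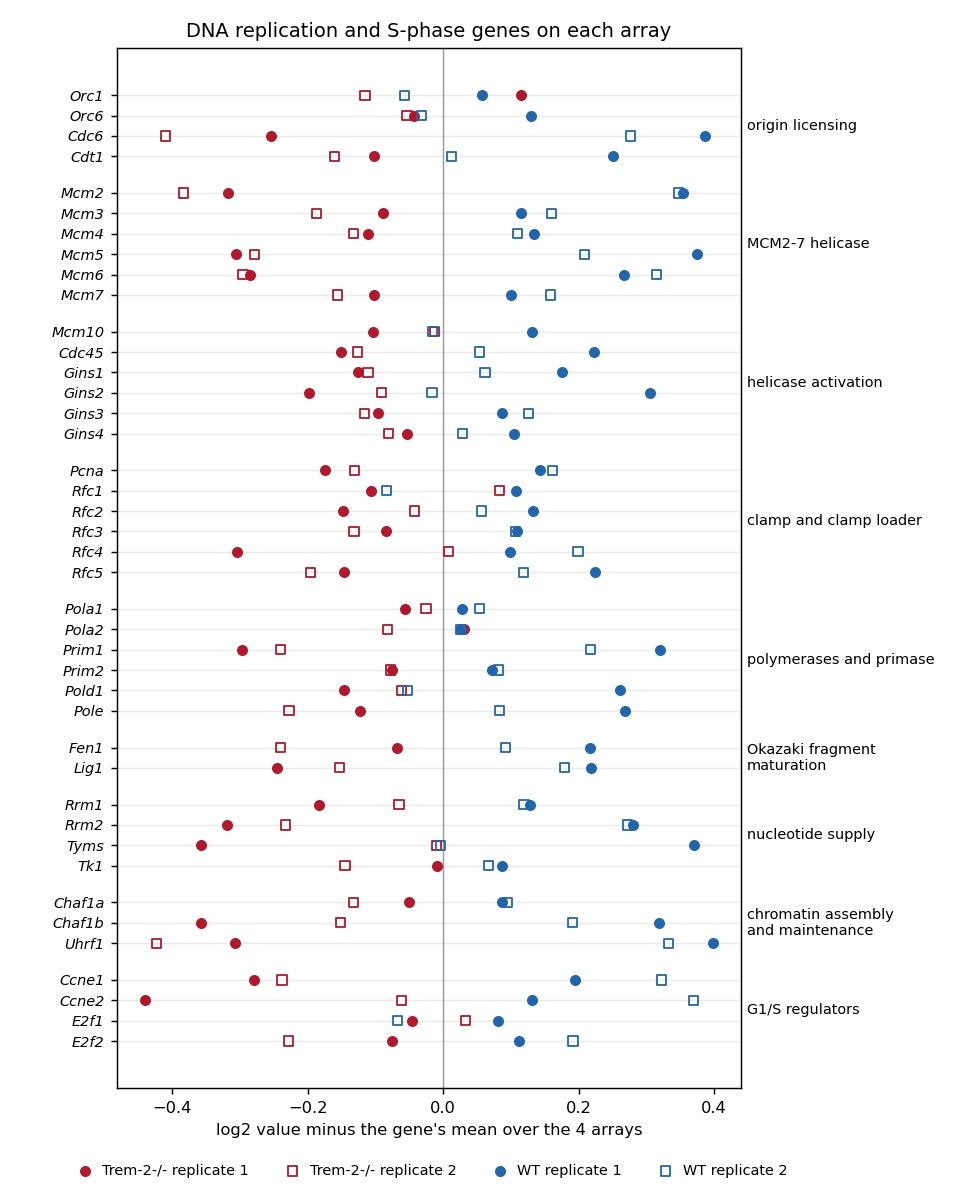
Log2 value of each replication gene on each array, as the difference from that gene's mean over the 4 arrays, with genes grouped by role. Red symbols are *Trem-2*-/- arrays and blue symbols WT arrays; the red symbols lie wholly to the left of the blue ones for 36 of 41 genes, and the exceptions are *Orc1*, *Mcm10*, *Rfc1*, *Pola2* and *E2f1*.

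The 5 called genes each separated the genotypes by several times the gap between arrays of a genotype. *Mcm2*, a subunit of the helicase ring, had log2 values of 7.67 and 7.60 on the *Trem-2*-/- arrays and 8.34 and 8.33 on the WT arrays. Its log2 fold change was −0.70 (SE 0.07, limma adjusted p = 0.0197), or a signal in *Trem-2*-/- AM of 0.615 times that in WT AM. The WT arrays differed by less than 0.01, and the nearest pair of arrays across genotypes remained well apart. *Uhrf1*, which recognizes hemimethylated DNA behind the fork and recruits the maintenance methyltransferase, had 7.17 and 7.05 on the *Trem-2*-/- arrays and 7.87 and 7.80 on the WT arrays. Its log2 fold change of −0.73 was the largest of the 41 (SE 0.08, limma adjusted p = 0.0235), a ratio of 0.603.

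*Mcm6*, another subunit of the ring, had 8.79 and 8.78 on the *Trem-2*-/- arrays and 9.34 and 9.39 on the WT arrays, a log2 fold change of −0.58 (SE 0.07, limma adjusted p = 0.0366). Replicate arrays of *Mcm6* were almost level within either genotype. *Cdc6*, the ATPase that loads the MCM ring at origins, had 6.15 and 5.99 on the *Trem-2*-/- arrays and 6.79 and 6.68 on the WT arrays, a log2 fold change of −0.66 (SE 0.09, limma adjusted p = 0.0486). *Rrm2*, the S-phase subunit of ribonucleotide reductase, which makes deoxynucleotides, had 8.12 and 8.21 on the *Trem-2*-/- arrays and 8.72 and 8.71 on the WT arrays, a log2 fold change of −0.55 (SE 0.07, limma adjusted p = 0.0486). *Cdc6* and *Rrm2* thus lay just inside the threshold of 0.05. *Prim1*, *Mcm5* and *Ccne1* lay just outside it, with adjusted p of 0.0614, 0.0628 and 0.0735 from limma. All 5 calls were lost when any 1 array was left out, with adjusted p from limma of 0.102 to 0.174 for *Mcm2*, 0.099 to 0.177 for *Uhrf1*, 0.138 to 0.251 for *Mcm6*, 0.144 to 0.272 for *Cdc6* and 0.182 to 0.285 for *Rrm2*, whereas their log2 fold changes in those fits ran only from −0.79 to −0.51. Significance analysis of microarrays (SAM), the test named in the study's methods, called *Mcm2* and *Uhrf1* alone among the members.

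**Figure D2:**
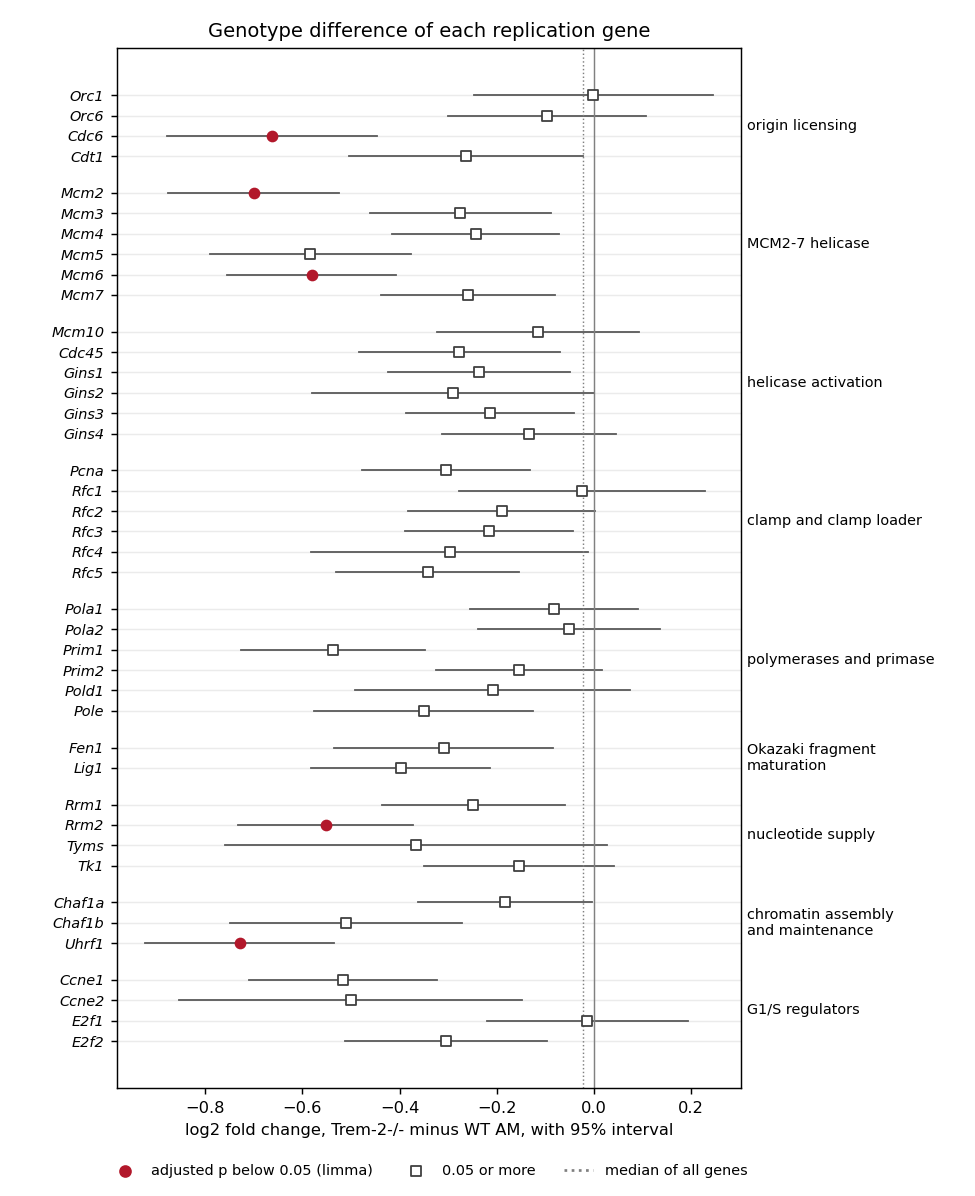
Log2 fold change (*Trem-2*-/- over WT) of each replication gene, with bars for the 95% interval from limma, which is not adjusted for the number of genes. Filled red circles mark an adjusted p below 0.05, open squares one of 0.05 or more, and the dotted line the median of all genes (−0.02); *Uhrf1* lies farthest left at −0.73, and *Orc1*, the sign of which turned with centring or quantile normalization, lies at 0.

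The promoters of the 5 called genes are shown because these transcripts were lower together and because replication genes are textbook targets of E2F factors. Each window runs from 250 bases before to 50 bases after the transcription start in RefSeq, build GRCm38.p6, and is printed 5′ to 3′ on the strand of the gene. Capitals mark an E2F-type motif spelled TTTCCCGC, TTTCGCGC, TTTGCCGC or TTTGGCGC on either strand. *Uhrf1* has a pair of windows, of which the one with a match is shown.
*Mcm2*, chr6:88898731-88899030, minus strand: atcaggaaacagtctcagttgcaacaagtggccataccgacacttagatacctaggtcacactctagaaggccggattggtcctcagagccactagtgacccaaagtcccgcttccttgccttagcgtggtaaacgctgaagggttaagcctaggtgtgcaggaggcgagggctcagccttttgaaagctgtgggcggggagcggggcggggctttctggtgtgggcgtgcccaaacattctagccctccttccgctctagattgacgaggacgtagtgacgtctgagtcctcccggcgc
*Mcm6*, chr1:128359656-128359955, minus strand: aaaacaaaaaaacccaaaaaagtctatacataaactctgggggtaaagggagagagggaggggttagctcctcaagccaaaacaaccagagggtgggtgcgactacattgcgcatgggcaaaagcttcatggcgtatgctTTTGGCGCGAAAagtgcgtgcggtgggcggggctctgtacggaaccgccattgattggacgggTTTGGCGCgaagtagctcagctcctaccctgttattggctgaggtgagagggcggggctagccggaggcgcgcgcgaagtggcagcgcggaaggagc
*Cdc6*, chr11:98907901-98908200, plus strand: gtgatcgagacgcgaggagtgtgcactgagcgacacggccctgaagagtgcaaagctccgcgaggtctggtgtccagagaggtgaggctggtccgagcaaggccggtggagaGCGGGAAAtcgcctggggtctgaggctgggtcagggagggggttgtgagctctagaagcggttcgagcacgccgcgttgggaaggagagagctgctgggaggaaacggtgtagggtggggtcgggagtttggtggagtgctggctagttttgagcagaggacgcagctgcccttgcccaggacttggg
*Uhrf1*, chr17:56304063-56304362, plus strand: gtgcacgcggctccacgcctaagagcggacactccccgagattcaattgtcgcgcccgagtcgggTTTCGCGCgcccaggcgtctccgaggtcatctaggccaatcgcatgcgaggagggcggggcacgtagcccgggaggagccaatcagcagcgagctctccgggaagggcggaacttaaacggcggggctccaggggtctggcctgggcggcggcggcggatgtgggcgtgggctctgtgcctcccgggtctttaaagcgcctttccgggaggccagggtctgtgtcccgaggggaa
*Rrm2*, chr12:24708004-24708303, plus strand: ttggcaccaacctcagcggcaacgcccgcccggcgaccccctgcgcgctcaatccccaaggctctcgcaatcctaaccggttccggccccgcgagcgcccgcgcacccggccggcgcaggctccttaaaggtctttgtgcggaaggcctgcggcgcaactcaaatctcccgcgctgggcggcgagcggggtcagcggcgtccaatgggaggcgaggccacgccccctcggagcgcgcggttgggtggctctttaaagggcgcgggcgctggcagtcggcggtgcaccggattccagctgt
*Mcm6* held 3 matches, whose first bases lay at −110, −106 and −47 counted from the start, the first pair overlapping. *Cdc6* held 1 match at −138, *Uhrf1* held 1 match at −185, and the windows of *Mcm2* and *Rrm2* held none of these spellings. Over all members, 33 had a window and 14 of them held a match, or 42.4%, against 2.6% of 27025 genes with a window. Per window the share was 14 of 39 for the members, or 35.9%, against 2.26% of 32851 windows. The other members with a match were *Cdt1*, *E2f2*, *Gins3*, *Lig1*, *Mcm3*, *Mcm5*, *Mcm7*, *Orc1*, *Pola1*, *Pold1* and *Rfc3*. The members were chosen as replication genes, so their higher share of matches does not bear on the genotype difference. Across the 14 members with a match, log2 fold changes ran from −0.73 in *Uhrf1* to 0.00 in *Orc1*. Across the members with a window but no match, they ran from −0.70 in *Mcm2* to −0.01 in *E2f1*. The CCAAT box, searched as CCAAT on both strands, stood in 60.6% of the members with a window and in 41.1% of genes. A match describes letters in the window and does not show a bound site.

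Among the factors of origin licensing, *Cdc6* was the member that passed the test. *Cdt1*, which works with *Cdc6* in loading the ring, had 8.21 and 8.15 on the *Trem-2*-/- arrays and 8.56 and 8.32 on the WT arrays. Both *Trem-2*-/- arrays thus lay below both WT arrays, where 25.4% of all genes did so. The gap between the WT arrays approached the difference of −0.26 (limma adjusted p = 0.40). *Orc6*, a subunit of the origin recognition complex, differed by −0.10 with a 95% interval of −0.30 to 0.11. *Orc1*, the ATPase subunit of that complex, had 4.95 and 4.72 on the *Trem-2*-/- arrays and 4.90 and 4.78 on the WT arrays, and differed by 0.00 with a 95% interval of −0.25 to 0.25. The genotypes overlapped for *Orc1*, and its mean of 4.84 in both genotypes lay nearer to the lower quartile of the arrays than that of any other member.

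The 6 subunits of the MCM2-7 ring all lay lower on both *Trem-2*-/- arrays than on both WT arrays, where 25.4% of all genes did. The median log2 fold change of the 6 was −0.43. *Mcm2* and *Mcm6* passed the test. *Mcm5* had 7.92 and 7.95 on the *Trem-2*-/- arrays and 8.61 and 8.44 on the WT arrays, a log2 fold change of −0.58 (95% interval −0.79 to −0.38), as large as that of *Mcm6*, but the WT arrays of *Mcm5* lay farther apart. *Mcm3*, *Mcm7* and *Mcm4* differed less, by −0.27, −0.26 and −0.24. All 6 subunits were lower at an unadjusted p below 0.05 from limma, against 6.9% of all genes. The 95% intervals of *Mcm2* (−0.88 to −0.52) and *Mcm4* (−0.42 to −0.07) did not overlap, but the difference between subunits was not tested. *Mcm10*, *Cdc45* and the 4 GINS genes, which turn the loaded ring into the active helicase, had log2 fold changes of −0.29 to −0.12, and none of these 6 passed the test. *Cdc45* had 6.62 and 6.64 on the *Trem-2*-/- arrays and 6.99 and 6.82 on the WT arrays. *Gins1* had 5.97 and 5.98 on the *Trem-2*-/- arrays and 6.27 and 6.15 on the WT arrays. Replicates of either gene from *Trem-2*-/- AM were almost level, and their WT arrays were higher and more spread, whereas *Mcm10* overlapped between genotypes. *Gins2* ran from −0.45 to −0.13 when 1 array was left out.

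No gene of the clamp and clamp loader passed the test. Of these 6 genes, 5 lay lower on both *Trem-2*-/- arrays than on both WT arrays, where 25.4% of all genes did. *Pcna*, which encodes the sliding clamp, had 11.14 and 11.18 on the *Trem-2*-/- arrays and 11.46 and 11.48 on the WT arrays, a log2 fold change of −0.30 (95% interval −0.48 to −0.13 and limma adjusted p = 0.198). Its second probe set had the same values on both *Trem-2*-/- arrays and almost the same on the WT arrays, so it is no independent measurement. *Rfc5*, a small subunit of the clamp loader, had 8.86 and 8.81 on the *Trem-2*-/- arrays and 9.23 and 9.13 on the WT arrays, a log2 fold change of −0.34 (95% interval −0.53 to −0.15). *Rfc4*, *Rfc3* and *Rfc2* lay between −0.30 and −0.19. *Rfc4* had 7.96 and 8.27 on the *Trem-2*-/- arrays and 8.36 and 8.46 on the WT arrays, and its log2 fold change was −0.14 without *Trem-2*-/- replicate 1 and −0.45 without replicate 2. *Rfc1*, the large subunit, had 8.86 and 9.05 on the *Trem-2*-/- arrays and 9.07 and 8.88 on the WT arrays, and the genotypes overlapped (log2 fold change −0.02).

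Polymerase and primase genes were uneven. *Prim1*, the catalytic subunit of primase, which lays down RNA primers, had 6.24 and 6.30 on the *Trem-2*-/- arrays and 6.86 and 6.76 on the WT arrays, a log2 fold change of −0.54 (95% interval −0.73 to −0.35), while *Prim2*, its large subunit, differed by −0.15 (95% interval −0.32 to 0.02). *Pole*, the leading strand polymerase, had 6.29 and 6.18 on the *Trem-2*-/- arrays and 6.68 and 6.49 on the WT arrays, a log2 fold change of −0.35. *Prim1* and *Pole* lay below all WT values on both *Trem-2*-/- arrays, where 25.4% of all genes did. *Pold1*, the lagging strand polymerase, differed by −0.21, but 1 WT array (7.29) lay next to a *Trem-2*-/- array (7.28). The subunits of polymerase alpha, which extends the primers, were close to 0, at −0.08 for *Pola1* and −0.05 for *Pola2*. Of the enzymes that join Okazaki fragments, the ligase *Lig1* had 7.90 and 7.99 on the *Trem-2*-/- arrays and 8.36 and 8.32 on the WT arrays, a log2 fold change of −0.40 (limma adjusted p = 0.131). The flap endonuclease *Fen1* differed by −0.31 (limma adjusted p = 0.309). *Lig1* and *Fen1* lay lower on both *Trem-2*-/- arrays than on both WT arrays, where 25.4% of all genes did.

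Nucleotide supply differed in *Rrm2* more clearly than in the other enzymes. *Rrm1*, the large subunit of ribonucleotide reductase, had 9.80 and 9.92 on the *Trem-2*-/- arrays and 10.11 and 10.11 on the WT arrays, a log2 fold change of −0.25 (95% interval −0.44 to −0.06). *Tyms*, which makes thymidylate, had 6.17 and 6.52 on the *Trem-2*-/- arrays and 6.90 and 6.53 on the WT arrays. Replicate arrays of *Tyms* differed by about as much as the genotypes, at a log2 fold change of −0.37 (95% interval −0.76 to 0.03). *Tk1*, the thymidine kinase of the salvage pathway, differed by −0.15, or by −0.13 at its second probe set.

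Of the chromatin factors, *Uhrf1* passed the test and *Chaf1b* came next. *Chaf1b*, a subunit of the chromatin assembly factor that deposits histones on new DNA, had 7.64 and 7.84 on the *Trem-2*-/- arrays and 8.31 and 8.18 on the WT arrays, a log2 fold change of −0.51 (limma adjusted p = 0.136). Its partner *Chaf1a* had 6.84 and 6.76 on the *Trem-2*-/- arrays and 6.98 and 6.99 on the WT arrays, a difference of −0.18 (limma adjusted p = 0.429). Both genes lay lower on both *Trem-2*-/- arrays than on both WT arrays, where 25.4% of all genes did.

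The cyclin E genes lay lower on both *Trem-2*-/- arrays than on both WT arrays, where 25.4% of all genes did. They fell short of the threshold, and *E2f1* was not separated. *Ccne1*, cyclin E1, the partner of the kinase CDK2 at S-phase entry, had 7.45 and 7.49 on the *Trem-2*-/- arrays and 7.92 and 8.05 on the WT arrays, a log2 fold change of −0.52 (95% interval −0.71 to −0.32). *Ccne2*, cyclin E2, had 5.48 and 5.86 on the *Trem-2*-/- arrays and 6.05 and 6.29 on the WT arrays. Its log2 fold change of −0.50 was close to that of *Ccne1*, but *Ccne2* had the widest gap between replicate arrays of all members, 0.38 in *Trem-2*-/- AM. *E2f2*, an activator E2F, differed by −0.30 (limma adjusted p = 0.278), and *E2f1*, the best known activator, had 8.17 and 8.25 on the *Trem-2*-/- arrays and 8.30 and 8.15 on the WT arrays (log2 fold change −0.01, 95% interval −0.22 to 0.19).

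The members therefore ranged from genes with no separation to a ratio of 0.603, and the arrays of a genotype were alike. The median gap between replicate arrays was 0.09 in *Trem-2*-/- AM and 0.10 in WT AM over the members, and 0.09 in both genotypes over all genes. The genotype difference exceeded both gaps for 31 of 41 members and for 6010 of 19946 genes. WT replicate 1 gave the highest value for 27 members and WT replicate 2 for 12, and without WT replicate 1 the median log2 fold change of the members was −0.23.

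Other genes of the replication programme, grouped in lists by function, mostly lay below 0, where 57.3% of all genes did. The medians of these lists were nearer to 0 than that of the members. Of 36 further replication factors, 29 had a mean below that of WT AM and none passed the test (median −0.09). The lowest p of that list was that of *Asf1b*, a histone chaperone at the fork, with 8.91 and 8.98 on the *Trem-2*-/- arrays and 9.41 and 9.33 on the WT arrays (log2 fold change −0.42, limma adjusted p = 0.110). Of 19 further nucleotide supply enzymes, 15 lay below 0 and none passed (median −0.10). *Mthfd2*, a mitochondrial enzyme of the folate cycle, had 7.68 and 7.76 on the *Trem-2*-/- arrays and 8.20 and 8.12 on the WT arrays, and *Tk2*, the mitochondrial thymidine kinase, had 8.59 and 8.60 on the *Trem-2*-/- arrays and 8.45 and 8.40 on the WT arrays. They differed in opposite directions, by −0.44 and 0.17 (adjusted p = 0.106 and 0.437 from limma). Of 29 further G1/S and E2F-Rb genes, 19 lay below 0 and none passed (median −0.09). *Ccnd2*, cyclin D2, which acts with CDK4 and CDK6 in G1, had 10.32 and 10.29 on the *Trem-2*-/- arrays and 10.82 and 10.80 on the WT arrays, just outside the threshold (log2 fold change −0.50, limma adjusted p = 0.0576). *Myc*, a transcription factor of cell growth named here after its value was seen, had 8.17 and 8.25 on the *Trem-2*-/- arrays and 8.75 and 8.63 on the WT arrays (log2 fold change −0.48, limma adjusted p = 0.0937).

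Of the genes above 0 in these lists, *Rrm2b*, the subunit of ribonucleotide reductase induced by p53, differed most, by 0.26, with overlapping genotypes (limma adjusted p = 0.5997). *Supt16*, a subunit of the histone chaperone FACT, and *Tfdp2*, a partner of E2F factors, differed by 0.08 and 0.21 (limma adjusted p = 0.721 and 0.5004).

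The mitotic genes did not share the direction of the replication genes. Of 37 measured genes of mitosis and G2/M, 16 lay below and 21 above 0, with a median log2 fold change of 0.04, and none passed the test in either direction. At an unadjusted p below 0.05, 8 were higher and 4 lower, where 4.64% of all genes were higher and 6.9% lower. Both *Trem-2*-/- arrays lay above both WT arrays for 13 and below them for 6, where 17.4% of all genes lay above and 25.4% below. *Cenpe*, a kinetochore motor, had 7.42 and 7.53 on the *Trem-2*-/- arrays and 7.10 and 7.10 on the WT arrays (log2 fold change 0.37, limma adjusted p = 0.157). *Aurkb*, the kinase of the chromosomal passenger complex, had 7.96 and 8.04 on the *Trem-2*-/- arrays and 8.31 and 8.34 on the WT arrays (log2 fold change −0.33, limma adjusted p = 0.175). *Mki67*, the proliferation marker Ki-67, named after its value was seen, had 8.99 and 9.05 on the *Trem-2*-/- arrays and 8.78 and 8.86 on the WT arrays, a log2 fold change of 0.20 (limma adjusted p = 0.406). *Cenpe* and *Mki67* were thus higher and *Aurkb* lower on both *Trem-2*-/- arrays, all short of the threshold. The replication genes and the mitotic genes share the arrays, and the difference between both lists was not tested.

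Receptors and regulators of AM growth had log2 fold changes between −0.09 and 0.13 in all 13 measured genes. Of the 13, 8 lay below 0, where 57.3% of all genes did. None of the 13 passed the test, where 0.135% of all genes passed as lower and 0.431% as higher. The gene *Csf2* lay near the lower quartile of the arrays, at 4.05 to 4.49. *Csf2ra*, the ligand-binding chain of the GM-CSF receptor, had 11.11 and 11.14 on the *Trem-2*-/- arrays and 11.18 and 11.25 on the WT arrays. *Csf1r*, the receptor of the macrophage growth factor M-CSF, had 12.61 and 12.55 on the *Trem-2*-/- arrays and 12.47 and 12.44 on the WT arrays. The differences of −0.09 and 0.13 had adjusted p of 0.704 and 0.570 from limma.

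**Figure D3:**
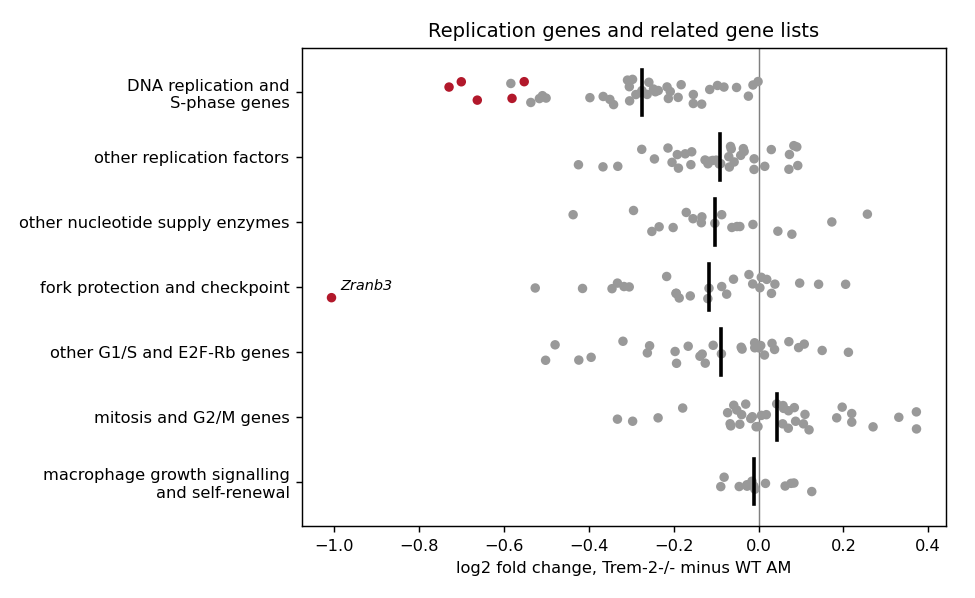
Log2 fold change (*Trem-2*-/- over WT) of each measured gene of the replication members and 6 related lists, with genes called by limma in red, others in grey, and black bars for the medians. The median is −0.27 for the replication members, between −0.12 and −0.09 for the lists of further replication, nucleotide, fork and G1/S genes, and 0.04 for the mitotic genes.

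Among 27 measured genes of fork protection and the replication checkpoint, 19 lay below 0 and *Zranb3* was called (median −0.12). Of all genes, 57.3% lay below 0 and 0.135% were called lower. *Zranb3*, an annealing helicase that binds PCNA at stalled forks, had 9.17 and 9.19 on the *Trem-2*-/- arrays and 10.26 and 10.12 on the WT arrays, a log2 fold change of −1.01 (SE 0.08, limma adjusted p = 0.0083). Its difference was larger than that of any replication member, and its call held in 2 of the 4 fits without 1 array (adjusted p up to 0.077 from limma). *Chek1*, the checkpoint kinase, named after its value was seen, had 5.76 and 5.96 on the *Trem-2*-/- arrays and 6.39 and 6.38 on the WT arrays (log2 fold change −0.53, limma adjusted p = 0.101). In the other direction *Rad1*, a subunit of the checkpoint clamp, differed by 0.21 (limma adjusted p = 0.489).

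*Zranb3* and *Mcm6* are near neighbours on chromosome 1, with *R3hdm1*, *Ubxn4* and *Lct* between them in the gene order of GRCm38.p6. This was looked up after both values were seen. Log2 fold changes of the 3 genes between them were −0.11, −0.03 and −0.09, and of 16 measured protein-coding neighbours of *Mcm6*, 7 lay below 0 and *Zranb3* alone was called lower. *Cxcr4*, the chemokine receptor gene on the other side of *Mcm6*, differed by 0.30 (limma adjusted p = 0.205). *Uhrf1* lies on chromosome 17, which also carries *Trem2*, with 52 measured protein-coding genes between them, and *Chaf1a* lies there too. On that chromosome 7 of 936 tested genes were called lower, *Trem2* and *Uhrf1* among them. The macrophage markers *H2-Aa*, *H2-Ab1* and *H2-Eb1* were among the 11 called higher there. These were 0.748% and 1.18% of the genes on the chromosome, against 0.135% and 0.431% of all genes. Among the 16 neighbours of *Uhrf1*, *Ptprs*, a receptor tyrosine phosphatase, was higher by 1.30 (limma adjusted p = 0.0025), and the other neighbours lay between −0.17 and 0.16. Whether DNA that differs between both mouse lines near these genes has a part in their values was not tested. The neighbours of *Mcm2*, *Cdc6* and *Rrm2* held no called gene, with median log2 fold changes of −0.01, 0.10 and 0.00 over 16 genes each.

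**Figure D4:**
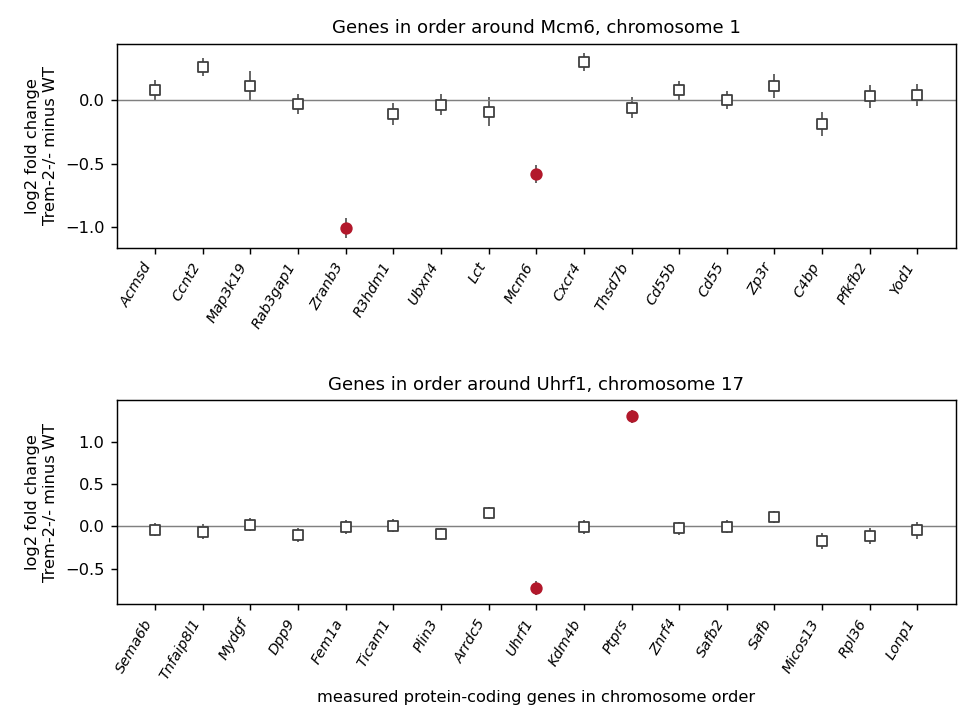
Log2 fold change (*Trem-2*-/- over WT) of measured protein-coding genes in chromosome order around *Mcm6* and around *Uhrf1*, with bars for the standard error from limma, filled red circles for an adjusted p below 0.05 and open squares for the others. *Zranb3* (−1.01) and *Mcm6* (−0.58) stand apart from the genes between them, and *Ptprs* (1.30) is called in the opposite direction near *Uhrf1* (−0.73).

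Which members passed differed with the model of the spread. Allowing the variance to follow intensity, with robust estimation, called 14 members lower and none higher, where 1.45% of all genes were called lower and 1.9% higher. These 14 included the 5 genes above and *Ccne1*, *Chaf1b*, *Lig1*, *Mcm3*, *Mcm5*, *Pcna*, *Prim1*, *Rfc5* and *Rrm1*. Testing only genes with a mean log2 value of at least 6 called 12 of 39 remaining members lower, where 1.39% of genes were called lower and 1.92% higher. *Orc1* and *Ccne2* lay under that minimum. The log2 fold changes are the same numbers in these fits. SAM called its 2 members where 0.0953% of all genes were lower and 0.857% higher. Quantile normalization called 6 members lower, *Mcm5* in addition, where 0.15% of all genes were lower and 0.411% higher. Centring the arrays called 4, without *Rrm2*, where 0.125% were lower and 0.441% higher, and averaging the probe sets of each gene called the 5, where 0.14% were lower and 0.431% higher. A block for the replicate number called 4, without *Rrm2*, where 0.155% were lower and 0.491% higher. A t-test, which the study's methods name for group comparisons in general and not for the arrays, called 18 members lower before adjustment. It called 5.27% of all genes lower and 3.92% higher. No member was called with 1 array left out, where between 0.0201% and 0.0351% of all genes were lower (0.0301% without *Trem-2*-/- replicate 2 or WT replicate 1) and between 0.11% and 0.216% higher, nor with all rows tested, where 0.00562% were lower and 0.0591% higher.

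**Figure D5:**
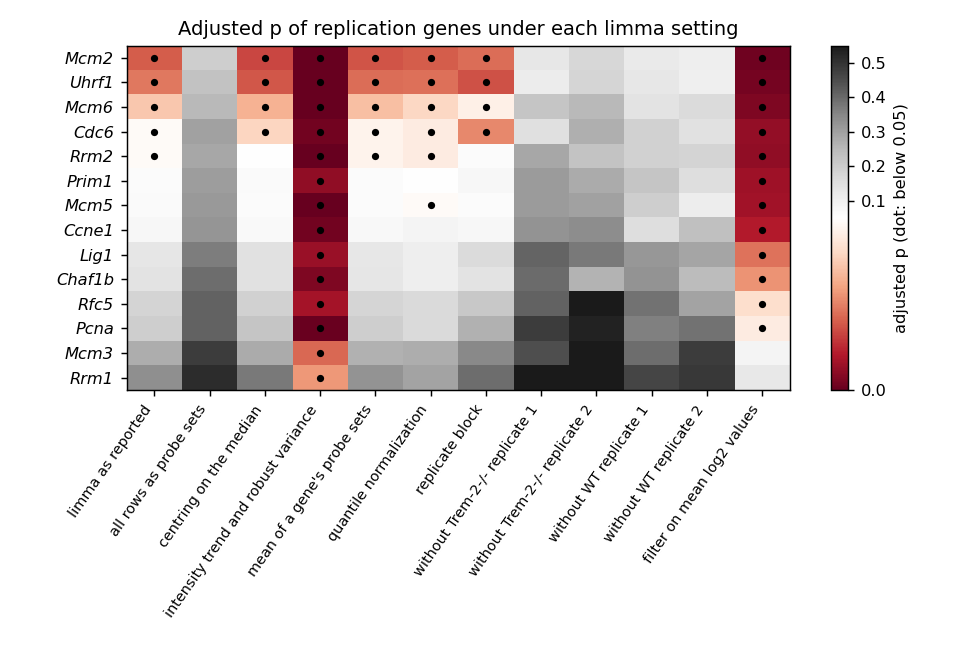
Adjusted p from limma of the 14 replication genes called under at least 1 limma setting, in rows, under each setting, in columns. Red cells with a dot are below 0.05; the 5 reported calls stand in the first column, 14 with an intensity trend and robust variance, and none in the 4 columns that leave out 1 array or the column that tests all rows as probe sets.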

How the data were processed

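Total RNA of pooled mice was labelled and hybridized to Affymetrix mouse gene arrays. The authors combined the scans, normalized them by RMA (background correction, equal distributions, summary of probes) and deposited log2 values, 1 per probe set and array. The submitters' processing notes name RMA, with no version, and genome build mm9. Scanner intensities were not used, which left the background correction as deposited. The number of arrays limits the precision.

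Groups and replicate numbers were taken from the sample labels, and every value column was used. Of 35557 probe sets, 21797 carried 1 symbol, 1613 several and 12147 were not in the annotation. The probe set with the highest mean was kept for each of 19946 genes, and no filter was applied. Promoters and gene order were taken from RefSeq, GRCm38.p6, without conversion from mm9.

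The main test was the two-sided moderated test of limma 3.58.1 (R version 4.3.3; lmFit, eBayes), adjusted by Benjamini-Hochberg across 19946 genes at a threshold of 0.05, with no term for the replicate number. With 2 arrays per genotype the smallest p of an exact permutation test (two-sided) is 0.333. SAM at a false-discovery rate of 5%, over all 6 assignments of the arrays, was written out as an alternative. Further alternatives were a variance that follows intensity (robust), the replicate block, a t-test, quantile normalization, centring, a filter at 6, the mean of probe sets, all rows, and leaving out each array. The study's methods name the t-test for group comparisons in general, and SAM for the arrays. The fits were run on simulated data of independent genes, where only the mean estimated log2 fold change was checked against the one put in. That check does not cover the rate of false calls.

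Members and gene lists were chosen with earlier results of these data known, so no test over a list was run. The genes named are the called members, those with the lowest p of each role or pathway list in each direction, called genes of the lists and *Trem2*; other members are named to account for all 41, and other names were chosen after their values were seen.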

Additional observations from a re-analysis of the deposited data

How the results depend on the processing

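With 2 arrays per genotype, the calls of the 5 members were less stable than their sizes and directions. Sizes of some other members moved more without 1 array, as in *Pold1* (−0.37 to −0.05) and *Tyms* (−0.55 to −0.18). Against 5 members lower in limma, SAM called 2, the filter on a mean of at least 6 called 12 and the intensity trend with robust variance 14. The t-test called 18 before and 0 after Benjamini-Hochberg adjustment, and all rows as probe sets gave 0. No setting called a member higher. Leaving out 1 array gave 0 members in each of the 4 fits, with fewer arrays by construction, and medians of the members from −0.29 to −0.23. The genes called lower in all were 27 in limma, 150 with the filter, 290 with the trend, 2 with all rows, 1052 and 0 with the t-test before and after adjustment, and 4 to 7 without 1 array. Those called higher were 86 in limma, 171 by SAM, 207 with the filter, 379 with the trend, 21 with all rows, 782 and 0 with the t-test, and 22 to 43 without 1 array. The share of lower genes among calls thus differs between settings, and the cause was not tested.

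The sign turned only for genes near 0. The Orc1 log2 fold change was 0.0058 after centring and 0.0028 after quantile normalization, and between −0.1159 and 0.1135 without 1 array. Without 1 array *Rfc1* ran from −0.1200 to 0.0719, *Pola2* from −0.1083 to 0.0045 and *E2f1* from −0.0876 to 0.0612. The sample labels do not say whether arrays with the same replicate number were paired. Deviations of same-numbered arrays from their group means correlated at −0.05 across genes, and the replicate block called 4 members lower, with *Rrm2* lost (limma adjusted p = 0.0592), 31 genes lower and 98 higher.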
